A study of Mus musculus with 18 samples.

Results

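Rnf138 and 8 genes of DNA double-strand break repair (Rbbp8, Xrcc5, Xrcc6, Rad50, Nbn, Brca1, Rad51d and Exo1) were followed through 18 RNA sequencing libraries. The 9 genes were picked by symbol from the 36757 genes of the deposited count table, and each symbol was found. All 9 passed the filter on low counts in every comparison. The libraries come from C57BL/6 mice that were 6 to 8 weeks old at the start of treatment. In the colitis model, mice drank 2% dextran sulfate sodium (DSS), which injures the colonic epithelium, for 7 days and then water for 14 days, in repeated cycles, and the colorectum was taken 4 weeks after the last cycle. In the colitis-associated cancer (CAC) model, the carcinogen azoxymethane (AOM, 10 mg/kg) was injected 4 days before the first of the same DSS cycles. The organoids were grown in matrigel from tumor fragments of the CAC model. Each model has 3 libraries labelled wild type, which the treatment protocol describes as RNF138 fl/fl (floxed alleles of Rnf138), and 3 labelled RNF138-/-. How the RNF138-/- allele was made, which exons it lacks, and whether each library is a different animal or culture are not given in the sources used here. If they are not, p-values measure only the spread between the libraries, which may be technical.

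RNF138 is a RING-type ubiquitin ligase that binds the DNA overhangs formed at double-strand breaks. In cells it is known to ubiquitylate the Ku subunit encoded by Xrcc5, which frees the break end from Ku, and CtIP, the product of Rbbp8, which starts the resection that homologous recombination needs. Ku-bound ends go to end joining, and resected ends go to recombination, whose genes are mostly transcribed in dividing cells. These are properties of the proteins. The libraries measure RNA only, in whole tissue or culture, where fewer cells of a type and less RNA per cell cannot be told apart.

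The promoter table of RefSeq (build GRCm38.p6) held 3 of the 9 members, Xrcc5, Xrcc6 and Brca1. Their 250 bases before the start are shown because these are the members found in that lookup. Elements known from cell-cycle promoters can be read in them directly. Capitals mark a CCAAT box (CCAAT, or ATTGG on the opposite strand) or an E2F element, and each sequence runs 5′ to 3′ toward the start, on the strand of the gene. Xrcc5 is chr1:72307171-72307420 (plus), Xrcc6 is chr15:82016119-82016368 (plus), and Brca1 is chr11:101551956-101552205 (minus). The RefSeq start of Xrcc6 lies inside its GENCODE interval.
Xrcc5: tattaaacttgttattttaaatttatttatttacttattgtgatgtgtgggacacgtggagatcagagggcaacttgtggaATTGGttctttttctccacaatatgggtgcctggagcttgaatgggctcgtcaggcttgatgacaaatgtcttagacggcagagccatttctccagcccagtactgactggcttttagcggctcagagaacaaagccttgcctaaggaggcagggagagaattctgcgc
Xrcc6: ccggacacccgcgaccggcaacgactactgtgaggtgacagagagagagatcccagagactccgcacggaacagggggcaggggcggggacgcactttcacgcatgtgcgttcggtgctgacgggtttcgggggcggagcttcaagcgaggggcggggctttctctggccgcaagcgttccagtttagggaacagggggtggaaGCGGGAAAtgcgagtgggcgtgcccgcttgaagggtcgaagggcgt
Brca1: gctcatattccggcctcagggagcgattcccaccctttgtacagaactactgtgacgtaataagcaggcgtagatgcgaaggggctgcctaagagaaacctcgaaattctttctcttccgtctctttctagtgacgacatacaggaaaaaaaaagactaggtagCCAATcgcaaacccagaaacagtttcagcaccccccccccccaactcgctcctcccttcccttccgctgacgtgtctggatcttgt

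An E2F element was searched as TTTCCCGC, TTTCGCGC, TTTGCCGC or TTTGGCGC on both strands, and 1.86% of 32851 promoter windows of this length hold such a run. The Xrcc6 window holds GCGGGAAA, the first of these read on the opposite strand, from 46 to 39 bases before the start. CCAAT occurs in 33.8% of the windows on either strand. It is 169 to 165 bases before the start of Xrcc5, on the opposite strand, and 86 to 82 bases before that of Brca1. The run TTTGAA, a part of the cell cycle homology region, is in 16% of all windows and in none of these 3. No 2 of the marked motifs overlap. The Xrcc6 window is also the richest of the 3 in G and C, at 65.2%, against 44.8% for Xrcc5, 51.2% for Brca1 and a median of 52.4% over all windows. It has 25 CpG dinucleotides, where Xrcc5 has 5 and Brca1 has 12.

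The members lie on 5 chromosomes of mm10, by the GENCODE M21 annotation. Rnf138 is at chr18:21001341-21028224 on the plus strand, with 6 exon blocks, and Rbbp8 at chr18:11633276-11745221 on the same strand. Xrcc5 is at chr1:72307421-72394952 and Xrcc6 at chr15:81987835-82040085. Rad50 spans chr11:53649519-53707319, Brca1 chr11:101488764-101551955 and Rad51d chr11:82876434-82890614, the only 3 members on the minus strand. Nbn is at chr4:15957925-15992589 and Exo1 at chr1:175880581-175913489. Of the 50-base windows of Xrcc6, 6.29% also occur in Desi1, an opposite-strand gene that shares 344 exonic bases with it. For Rbbp8 the share is 3.12%, with AC090479.2 on the opposite strand sharing 402 exonic bases. Whether the counting used strand is not given in the sources used here, so reads of these overlaps cannot be assigned with certainty. The share is 0.762% for Rnf138, 0.941% for Exo1, and 0 for the other 5 members.

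Total counts ran from 11514716 to 24390082 per library, with the lowest in wild type replicate 3 of CAC. The 9 members had between 18 and 1196 counts per library, and Rnf138 alone between 227 and 1120. Levels are library-scaled read counts (CPM), normalised by the TMM method of edgeR over all 18 libraries, and genotypes were compared within each model by edgeR's quasi-likelihood test with Benjamini-Hochberg adjustment over all genes tested. Before the results, 2 features of the libraries bear on them. The first is that no fall in Rnf138 reads was detected in the libraries labelled RNF138-/-, as described next, so these counts do not check the label and every direction below is between labels. RNF138 protein was not measured in these libraries. The second is sex: the 4 Y-linked genes counted had 0 reads in all 3 wild type organoid libraries and a summed level of 242 to 281 CPM in the organoids labelled RNF138-/-, so sex and genotype cannot be told apart in the organoids. In the 12 tissue libraries the same sum was between 114 and 229 CPM.

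In colitis, Rnf138 stood at 15.6, 17.97 and 25.1 CPM in the wild type libraries and at 19.4, 17.99 and 19.1 CPM in those labelled RNF138-/-. The groups overlapped, and the log2 fold change was −0.06 (95% interval −0.56 to 0.45, edgeR, adjusted p = 0.963). In CAC the wild type libraries had 27.6, 27.3 and 21.5 CPM and those labelled RNF138-/- had 39.7, 45.4 and 45.8 CPM. Every library labelled RNF138-/- was thus above every wild type library, opposite in direction to a loss of the transcript. The log2 fold change was 0.72 (SE 0.14, interval 0.38 to 1.07, edgeR, adjusted p = 0.0426), a 1.65-fold difference. In the organoids Rnf138 had 37.7, 53.5 and 55.7 CPM in wild type and 50.3, 47.8 and 42.8 CPM in the other group. These values overlapped, with a log2 fold change of −0.10 (interval −0.48 to 0.28, edgeR, adjusted p = 0.668). Counts per gene pool all exons, so a transcript that lacks an exon but keeps the rest would still be counted, which was not tested. The smallest p that an exact permutation test of 3 libraries against 3 can give is 0.1, and Rnf138 reached it in CAC alone among the 3 models. In CAC 24.5% of all genes were separated upward, as Rnf138 was, and 20.7% downward.

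**Figure D1:**
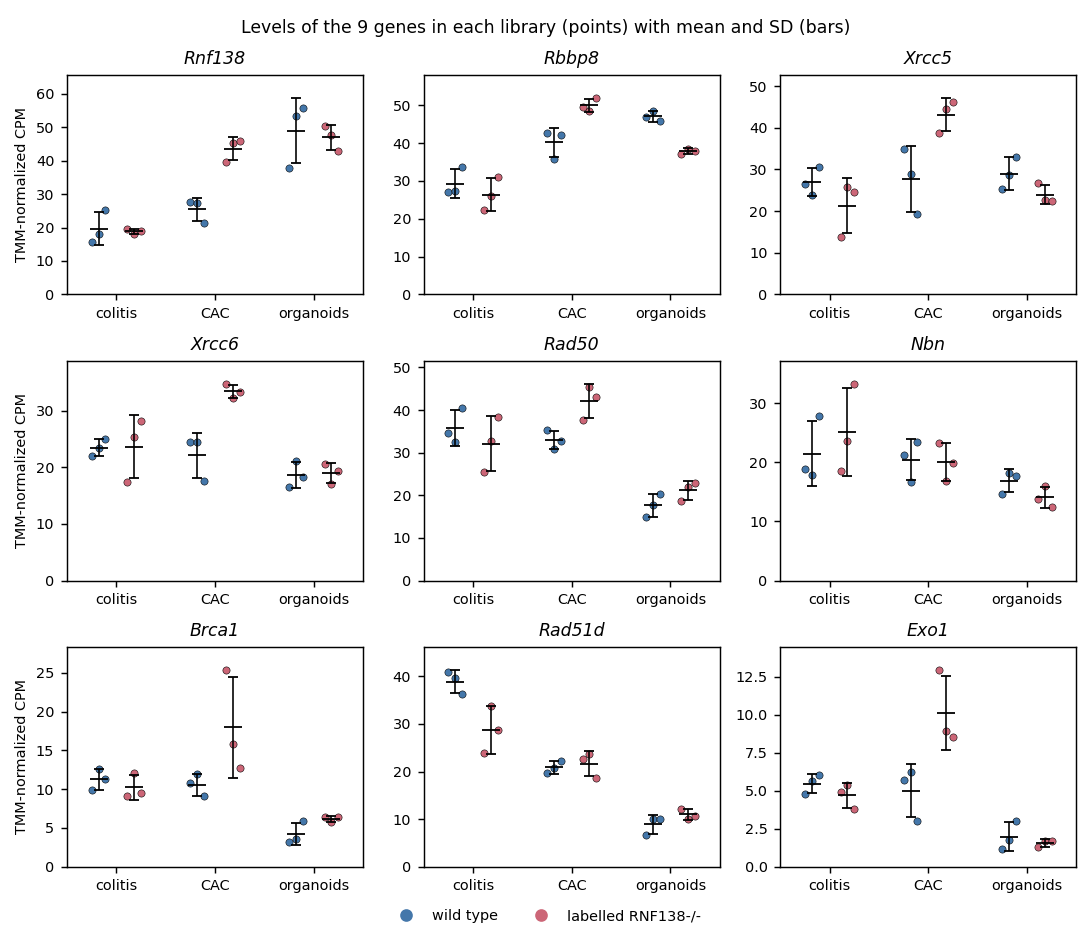
TMM-normalized CPM of the 9 genes in the 18 libraries, by model on the horizontal axis, with wild type in blue and libraries labelled RNF138-/- in red. Points are libraries and bars are the mean and SD of 3. In CAC, 7 of the 9 genes have all red points above all blue points, and Rnf138 is lowest in colitis and highest in the organoids.

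The mean level of Rnf138 was lowest in colitis and highest in the organoids. In order it was 18.8 ± 0.760 CPM (SD, n = 3) in colitis labelled RNF138-/-, 19.6 ± 4.95 in colitis wild type, 25.4 ± 3.43 in CAC wild type, 43.6 ± 3.41 in CAC labelled RNF138-/-, 46.9 ± 3.81 in organoids labelled RNF138-/- and 48.9 ± 9.79 in wild type organoids. Only the step between CAC wild type and CAC labelled RNF138-/- separated neighbours whose libraries did not overlap. The highest mean was 2.598 times the lowest. Per kilobase of exon the wild type colitis level of Rnf138 was 2.41 CPM, near that of Rbbp8 at 2.34. On this scale Xrcc5 (10.6), Rad51d (10.5) and Nbn (8.48) stood highest, Rad50 (6.66) and Xrcc6 (5.24) between, and Brca1 (1.32) and Exo1 (0.650) lowest.

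The genotypes were compared to see whether repair genes differ where the ligase is labelled as absent. In colitis, 0 of the 9 members passed an adjusted p of 0.05 by edgeR, 0 had an unadjusted p under 0.05 (10.4% of all genes did), and DESeq2 called 0. Over all genes tested the share called was 0.0902%, so the background itself was close to none. Of the members 7 lay below 0 and 2 above, with a median log2 fold change of −0.15, against 0.02 over all genes. In CAC, 1 of 9 passed (Rnf138, higher), where 6.38% of all genes did (1.05% higher and 5.33% lower), and 5 of 9, all higher, had an unadjusted p under 0.05, where 33.8% of all genes did (14.1% higher and 19.7% lower). The CAC fold changes lay above 0 for 8 of the 9, with a median of 0.54 against 0.01 over all genes. In the organoids 1 of 9 passed (Rbbp8, lower), against 35.5% of all genes (17.9% higher and 17.7% lower), with 3 above 0, 6 below and a median of −0.10. No member reached a 2-fold difference between genotypes in these fits. Exo1 in CAC came nearest and passed it in some alternatives, with a log2 fold change of 1.00 in 1 fit of all 18 libraries (edgeR, adjusted p = 0.0383) and a range of 0.73 to 1.18. With no scaling beyond library totals, the median of all genes moved by 0.26 in CAC and by −0.20 in the organoids, and the members' median stayed 0.52 above that of all genes in CAC.

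The libraries of the 2 labels were also compared for overlap. In CAC, 7 of the 9 members had all 3 libraries labelled RNF138-/- above all 3 wild type libraries, where 24.5% of all genes did, and 0 had them below, where 20.7% did. In colitis 0 members were separated upward (8.87% of all genes) and 1, Rad51d, downward (8.32%). In the organoids 0 were separated upward (27.6%) and 1, Rbbp8, downward (25.7%).

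**Figure D2:**
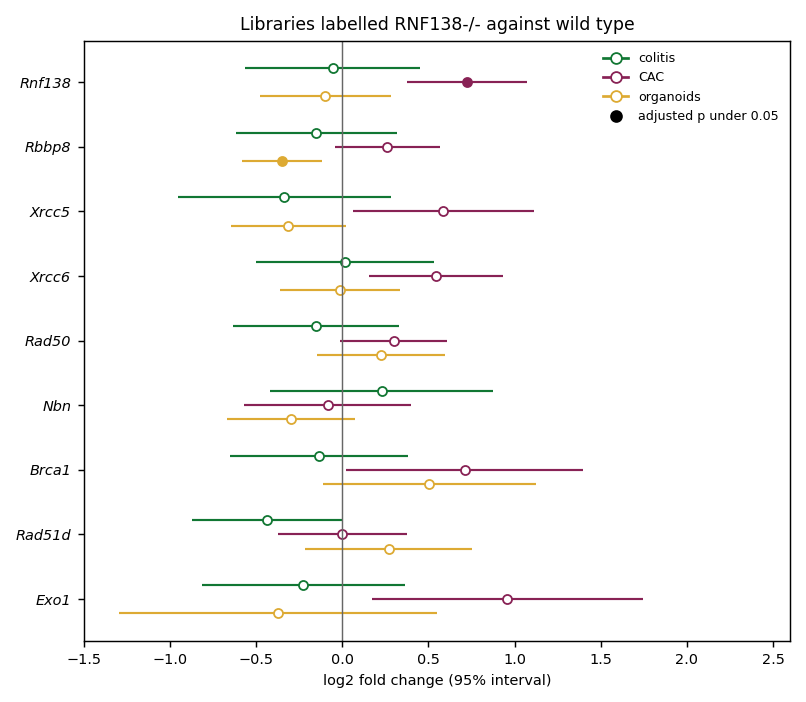
Log2 fold change of the libraries labelled RNF138-/- against wild type for each gene (points) with its 95% interval (lines), from an edgeR fit in each model, where filled points have an adjusted p under 0.05. The CAC estimates lie above 0 for all genes but Nbn, with Rad51d at 0, and only Rnf138 in CAC and Rbbp8 in the organoids are filled.

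Rbbp8 encodes CtIP, the factor that starts end resection with the MRE11 nuclease. In colitis its levels were 26.9, 27.2 and 33.6 CPM in wild type and 22.2, 25.9 and 30.9 CPM in the other group. These overlapped, at a log2 fold change of −0.15 (edgeR, adjusted p = 0.861). In CAC they were 42.6, 35.7 and 42.2 CPM and 49.5, 48.4 and 51.9 CPM, which did not overlap, with a log2 fold change of 0.26 (edgeR, adjusted p = 0.196). In the organoids Rbbp8 had 46.8, 48.5 and 45.8 CPM in wild type and 37.1, 38.5 and 38.0 CPM in the other group. Both organoid groups were tight and did not overlap. Rbbp8 was lower by a log2 fold change of −0.35 there (SE 0.10, edgeR, adjusted p = 0.0292).

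Xrcc5 and Xrcc6 encode the larger and smaller subunits of Ku, the ring that caps broken ends for end joining. Xrcc5 had 34.9, 29.0 and 19.3 CPM in wild type CAC and 38.7, 44.5 and 46.3 CPM in CAC labelled RNF138-/-. Xrcc6 had 24.43, 24.5 and 17.5 CPM there in wild type and 34.7, 32.3 and 33.3 CPM in the other group. For both genes the wild type replicate 3 of CAC, the shallowest library, was the lowest of the 6. The log2 fold changes were 0.59 for Xrcc5 (edgeR, adjusted p = 0.120) and 0.54 for Xrcc6 (edgeR, adjusted p = 0.0807), past an unadjusted p of 0.05 but not the adjusted one. In colitis Xrcc5 ran from 23.9 to 30.5 CPM in wild type and from 13.7 to 25.7 CPM in the other group, with a log2 fold change of −0.34 (edgeR, adjusted p = 0.735). Xrcc6 in colitis had nearly equal means, 23.5 and 23.7 CPM. In the organoids Xrcc5 had 25.3, 28.7 and 33.1 CPM in wild type against 26.7, 22.8 and 22.4 CPM, a log2 fold change of −0.31 (edgeR, adjusted p = 0.123), and Xrcc6 had means of 18.6 and 19.0 CPM.

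The Ku subunits work as a pair, so the ratio of their counts per kilobase was taken within each library, where it does not depend on scaling between libraries. In colitis the log2 ratio of Xrcc5 to Xrcc6 was 1.08, 0.84 and 1.10 in wild type and 0.47, 0.82 and 0.61 in the libraries labelled RNF138-/-. The groups did not overlap, with a mean difference of −0.37 (exact permutation test, two-sided, n = 3, p = 0.1). In the organoids the ratio was again lower in every library labelled RNF138-/-, at 1.18, 1.23 and 1.02 against 1.42, 1.25 and 1.66, a difference of −0.30 (exact permutation p = 0.1). In CAC the means were 1.11 and 1.17 and the groups overlapped (exact permutation p = 0.9). With 9 such ratio tests the lowest Benjamini-Hochberg value was 0.225, so none passed.

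Rad50 and Nbn encode the ATPase and the signalling subunit of the complex that MRE11 forms at breaks. Rad50 was between 30.9 and 35.3 CPM in wild type CAC and between 37.6 and 45.5 CPM in CAC labelled RNF138-/-, separated but with a log2 fold change of 0.30 that did not pass (edgeR, adjusted p = 0.163). In colitis it ran from 32.4 to 40.4 CPM and from 25.5 to 38.3 CPM, and in the organoids from 14.8 to 20.3 CPM and from 18.7 to 22.8 CPM. Nbn had group means between 14.1 and 25.1 CPM, and its log2 fold changes of 0.23, −0.08 and −0.30 in colitis, CAC and organoids had intervals that included 0. Mre11a, the nuclease that joins Rad50 and Nbn in that complex, had a log2 fold change of 0.42 in CAC (edgeR, adjusted p = 0.0857).

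The log2 ratio of Rad50 to Nbn per kilobase was compared in the same way. In colitis it was −0.21, −0.22 and −0.55 in wild type and −0.62, −0.62 and −0.88 in the libraries labelled RNF138-/-, lower in all 3 (difference −0.38, exact permutation p = 0.1). In the organoids it was −1.07, −1.12 and −0.89 against −0.64, −0.63 and −0.21, higher in all 3 (difference 0.53, exact permutation p = 0.1). In CAC the groups overlapped (difference 0.38, exact permutation p = 0.3). These p-values are the smallest possible in colitis and organoids, none passed over the 9 ratio tests, and the difference between models was not tested. The labels name no pairing, but same-numbered colitis libraries deviated together, and a paired comparison was added after the data were seen. Within pairs the Rad50 to Nbn differences were −0.41, −0.40 and −0.34, and those of Xrcc5 to Xrcc6 were −0.61, −0.02 and −0.48 (exact sign-flip permutation p = 0.25 for each, the smallest that 3 pairs allow).

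**Figure D3:**
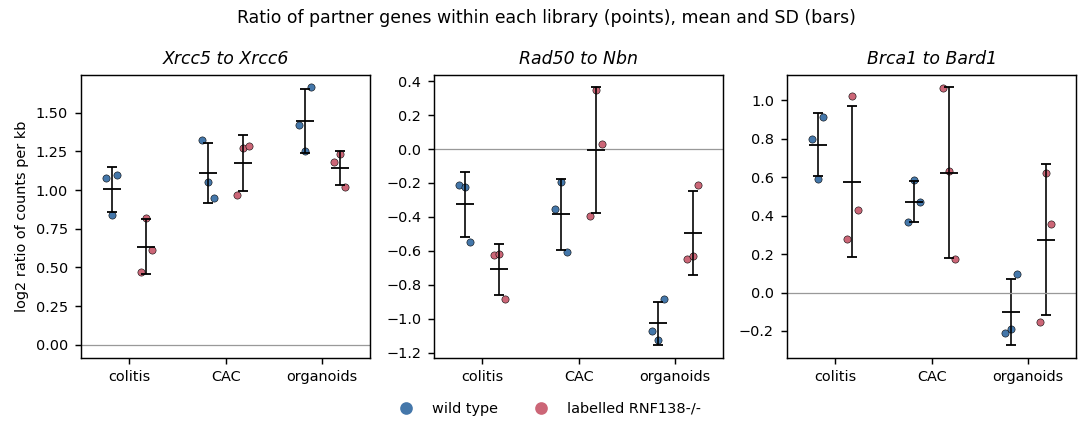
Log2 ratio of counts per kb of exon for 3 pairs of partner genes in each library (points), with the mean and SD of 3 (bars), in wild type (blue) and libraries labelled RNF138-/- (red). The Xrcc5 to Xrcc6 groups are apart in colitis and organoids, and the Rad50 to Nbn groups are apart in the same models but in opposite directions.

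Brca1, which directs breaks to recombination, had 10.8, 11.9 and 9.09 CPM in wild type CAC and 25.3, 15.9 and 12.7 CPM in CAC labelled RNF138-/-. The groups did not overlap, but replicate 1 of the latter group stood far above the other two. The log2 fold change was 0.71 (interval 0.02 to 1.40, edgeR, adjusted p = 0.139). Over 13 alternatives it ran from 0.38 to 0.95. Only 1 of these called it, the fit of all 18 libraries (0.76, edgeR, adjusted p = 0.0475). In colitis Brca1 had means of 11.2 and 10.3 CPM. In the organoids it had 3.23, 3.59 and 5.87 CPM in wild type and 6.39, 5.77 and 6.35 CPM in the other group, a log2 fold change of 0.51 (edgeR, adjusted p = 0.170). Over 12 alternatives this ran from 0.29 to 0.82. It was called in 1 of them, without wild type replicate 3 (0.82, edgeR, adjusted p = 0.0336). Bard1, the obligate partner of Brca1, had a log2 fold change of 0.50 in CAC (edgeR, adjusted p = 0.146), and the Brca1 to Bard1 ratio was not separated between genotypes in any model (exact permutation p between 0.2 and 0.7).

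Exo1, the exonuclease that extends resection, was the least abundant member, with 18 to 243 counts per library. In CAC it had 5.72, 6.25 and 3.03 CPM in wild type and 12.9, 8.91 and 8.56 CPM in the libraries labelled RNF138-/-. All 3 of the latter were above all 3 wild type libraries. Its log2 fold change of 0.96 was the largest of the members in CAC, with a wide interval of 0.17 to 1.75 (edgeR, adjusted p = 0.104). In colitis and the organoids the groups overlapped, with log2 fold changes of −0.23 and −0.37.

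Rad51d, a gene of the recombination machinery, was the only member separated in colitis. It had 40.8, 39.6 and 36.3 CPM in wild type and 23.8, 33.9 and 28.7 CPM in the libraries labelled RNF138-/-, all lower. The log2 fold change was −0.43 (interval −0.87 to 0.00, edgeR, adjusted p = 0.485), with an exact permutation p of 0.1. Between genotypes it was flat in CAC, with means of 20.9 and 21.6 CPM.

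In the fit of all 18 libraries, the difference of the genotype effects was tested between models. Between CAC and colitis 1 of 9 members passed, against 14.1% of all genes (4.21% larger and 9.88% smaller in CAC), and 7, all larger in CAC, had an unadjusted p under 0.05, where 30.1% of all genes did (12.4% larger and 17.7% smaller). That member was Rnf138, whose effect was larger in CAC by 0.83 in log2 units (SE 0.26; edgeR adjusted p = 0.0449). The next were Xrcc5 at 0.97 (edgeR, adjusted p = 0.0581) and Exo1 at 1.23 (edgeR, adjusted p = 0.0895), which did not pass. Between organoids and CAC 2 of 9 passed, against 23.3% of all genes (13.1% larger and 10.2% smaller in organoids), with Rnf138 at −0.83 (edgeR, adjusted p = 0.0296) and Rbbp8 at −0.63 (edgeR, adjusted p = 0.02997). Between organoids and colitis 0 passed by edgeR, against 7.11% of all genes, and DESeq2, whose share of all genes is not given here, called 1. Rad51d had the only unadjusted p under 0.05 there, with a difference of 0.74 (edgeR, adjusted p = 0.0892). The Rnf138 difference between CAC and colitis was lost in 14 of 17 alternatives, including the replicate block (0.81, adjusted p = 0.0578). Of the 12 libraries, it held only without colitis wild type replicate 1, and over the other 11 it ran from 0.55 (without colitis wild type replicate 3, edgeR, adjusted p = 0.157) to 0.89 (without replicate 1 of CAC labelled RNF138-/-, adjusted p = 0.0549). The Rnf138 difference between organoids and CAC was lost without CAC wild type replicate 3 (−0.72), CAC labelled RNF138-/- replicates 2 (−0.79) and 3 (−0.79), organoid wild type replicates 2 (−0.76) and 3 (−0.71), and organoids labelled RNF138-/- replicates 2 (−0.84) and 3 (−0.77). The Rbbp8 difference was lost without any 1 of these libraries other than CAC wild type replicate 3, and also without CAC wild type replicates 1 (−0.65) and 2 (−0.52) and replicate 1 of either group labelled RNF138-/- (−0.62 in CAC, −0.61 in organoids).

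The calls for Rnf138 in CAC and Rbbp8 in organoids were near the threshold. The Rnf138 call was lost without wild type replicate 1 (log2 fold change 0.77, edgeR, adjusted p = 0.0756) or 2 (0.78, edgeR, adjusted p = 0.0564), and without replicate 1 (0.78, adjusted p = 0.103), 2 (0.71, adjusted p = 0.164) or 3 (0.71, adjusted p = 0.115) of CAC labelled RNF138-/-. It held without wild type replicate 3. It was also lost with library totals (0.98, adjusted p = 0.0542), the replicate block (0.73, adjusted p = 0.0624) and Y-linked genes as a covariate (0.68, adjusted p = 0.344), 8 of 13 alternatives in all. The direction did not change in any of the 13 alternatives, over which the log2 fold change ran from 0.64 to 0.98. DESeq2 gave an adjusted p of 0.00120 and called Xrcc6 and Exo1 as well, 3 of 9 in all. The share of all genes that DESeq2 called is not given here, so 3 of 9 has no background beside it. The Rbbp8 call in organoids was lost in 8 of 12 alternatives, while its log2 fold change stayed between −0.55 and −0.31. It was lost without wild type replicate 2 (−0.32, edgeR, adjusted p = 0.0647) and without replicate 1 (−0.33, adjusted p = 0.118), 2 (−0.35, adjusted p = 0.0975) or 3 (−0.34, adjusted p = 0.108) of the organoids labelled RNF138-/-. DESeq2 also left it above the threshold (−0.31, adjusted p = 0.0714).

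The same fit compared the models within each label, where any batch shared by a model cannot be told apart from the model. From colitis to CAC in wild type, 2 of 9 members passed, against 19.8% of all genes (12.3% higher and 7.55% lower). Rbbp8 rose by 0.46 (edgeR, adjusted p = 0.0296), and Rad51d fell by 0.90 on the log2 scale (edgeR, adjusted p = 0.00262). Rad51d thus went from 38.9 ± 2.35 CPM in colitis to 20.9 ± 1.32 CPM in CAC (SD, n = 3), with no overlap. In the libraries labelled RNF138-/-, 6 of 9 were higher in CAC than in colitis, against 54.7% of all genes called in either direction and 27.9% called higher. These were Rnf138 (log2 fold change 1.21), Exo1 (1.11), Xrcc5 (1.02), Rbbp8 (0.92), Brca1 (0.81) and Xrcc6 (0.50), and the first 3 of them exceeded 2-fold. The wild type Rbbp8 call was lost without colitis wild type replicates 1 (0.37) and 2 (0.36) and CAC wild type replicates 1 (0.38) and 3 (0.42). Among the libraries labelled RNF138-/-, Xrcc6 was lost without colitis replicates 1 (0.32) and 2 (0.46) and CAC replicates 1 (0.47), 2 (0.52) and 3 (0.50). Brca1 was lost without colitis replicates 1 (0.73) and 3 (0.70) and CAC replicate 1 (0.48), and Exo1 without colitis replicate 3 (0.91) and CAC replicate 1 (0.90), which left 3 of 9 called without CAC replicate 1.

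From CAC to organoids, 5 of 9 members passed in wild type, against 60.7% of all genes (27% higher and 33.7% lower). Rnf138 was higher in organoids by 0.94 (edgeR, adjusted p = 0.000431), and Exo1 (−1.35), Brca1 (−1.33), Rad51d (−1.23) and Rad50 (−0.90) were lower. In the libraries labelled RNF138-/- 7 of 9 passed, all lower, against 59.9% of all genes in either direction and 34.2% lower. Exo1 fell by 2.69, Brca1 by 1.54, Rad50 by 0.99, Rad51d by 0.98, Xrcc5 by 0.85, Xrcc6 by 0.82 and Rbbp8 by 0.40 on the log2 scale, while Rnf138 differed by 0.11 (interval −0.28 to 0.49). The Rbbp8 call was lost without CAC replicate 3 (−0.38) and organoid replicates 1 (−0.38) and 3 (−0.40) of the libraries labelled RNF138-/-. Both comparisons to CAC use the same CAC libraries.

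**Figure D4:**
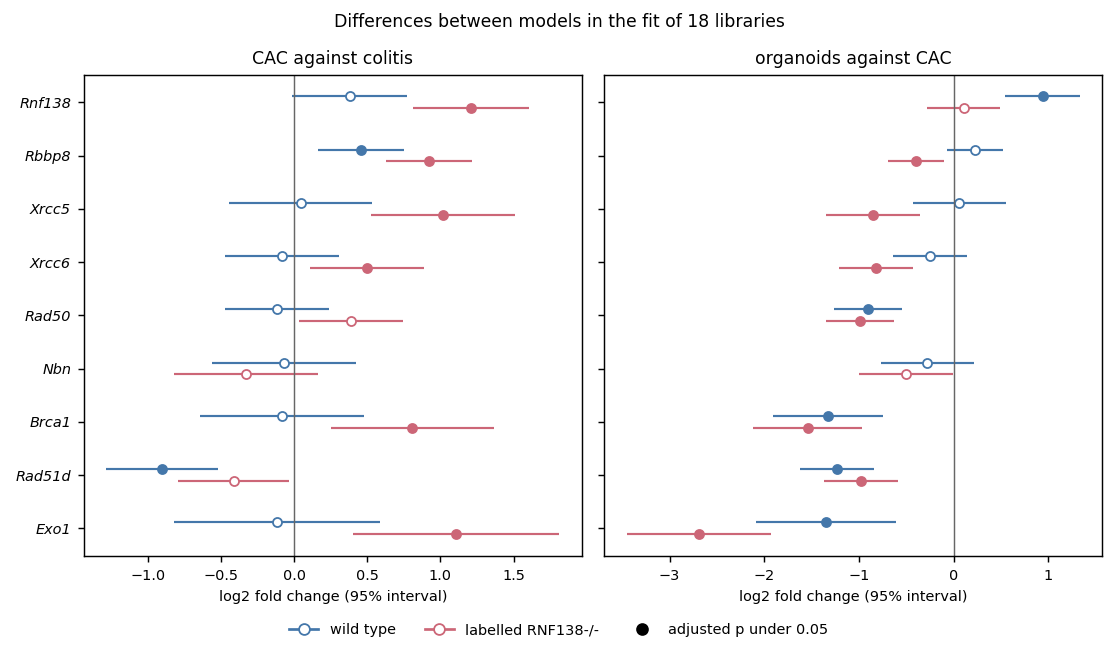
Log2 fold changes between models (points) with 95% intervals (lines) from the edgeR fit of 18 libraries, for wild type (blue) and libraries labelled RNF138-/- (red), where filled points have an adjusted p under 0.05. From colitis to CAC most red points lie to the right of the blue ones, and from CAC to organoids all genes but Rnf138 have red points below 0.

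Mki67, a marker of cycling cells, and other genes of replication and mitosis were read beside the members. Of 30 proliferation genes, 29 were above 0 in CAC, with a median log2 fold change of 0.53, 1 called (Rrm1, named after its value was seen, 0.80, edgeR, adjusted p = 0.0381) and 20, all higher, with an unadjusted p under 0.05, against 14.1% of all genes higher at that p. Their summed level was 1019 to 1106 CPM in wild type CAC and 1491 to 1904 CPM in CAC labelled RNF138-/-. Mki67 itself had a log2 fold change of 0.24 (edgeR, adjusted p = 0.307) and the replication clamp Pcna one of 0.52 (edgeR, adjusted p = 0.0603). The sum was 592 to 845 CPM in wild type organoids and 724 to 776 CPM in the others, below every tissue library. In the organoids 6 of the 30 were called higher and 1 lower, against 17.9% and 17.7% of all genes, the latter Pcna (−0.32, edgeR, adjusted p = 0.0498), with Mki67 at 0.80 (edgeR, adjusted p = 0.0909). In colitis 0 were called by edgeR and 0 had an unadjusted p under 0.05. The summed level in colitis was 1160 to 1412 CPM and 1012 to 1350 CPM. The part of proliferation in the members' levels was not tested.

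Some cell type markers differed between the CAC labels as well, where 5.33% of all genes were called lower and 1.05% higher. All 6 smooth muscle genes were called lower in CAC labelled RNF138-/-, with a summed level of 113 to 242 CPM against 2508 to 8388 CPM in wild type, and Acta2 fell by 3.37 on the log2 scale (edgeR, adjusted p = 0.0225). All 10 epithelial markers lay below 0, 2 of them called, at 7600 to 9538 CPM against 10559 to 21009 CPM, with Epcam at −0.27 (edgeR, adjusted p = 0.433). At an unadjusted p under 0.05 by edgeR, 6 of them were lower, where 19.7% of all genes were. Of 10 leukocyte markers 3 were called lower and 0 higher, with summed levels of 150 to 205 CPM against 148 to 279 CPM, and Ptprc at −0.73 (edgeR, adjusted p = 0.0891). At that unadjusted p 4 were lower and 1 higher, where 14.1% of all genes were higher. The 7 fibroblast markers (959 to 1780 CPM against 1093 to 1770 CPM) and 5 endothelial markers (70.7 to 114 CPM against 98.3 to 125 CPM, with Pecam1 at −0.39) had 0 calls by edgeR and 0 with an unadjusted p under 0.05. In colitis 0 of these markers were called by edgeR, with 4 leukocyte and 1 fibroblast marker higher and 1 epithelial marker lower at an unadjusted p under 0.05. Over all genes 6.08% were higher and 4.33% lower there at that p. Whether these shifts take part in the members' CAC values was not tested.

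The organoids held fibroblast RNA. Col1a1, the main fibrillar collagen gene, had 5366 CPM on average in wild type organoids and 15064 CPM in those labelled RNF138-/-, against 150 to 223 CPM on average in the CAC groups. The sum of 7 fibroblast markers was 9175 to 23405 CPM in wild type organoids and 40763 to 50126 CPM in the other group, and all 7 were called higher. Over all genes 17.9% were called higher and 17.7% lower in the organoids. Epithelial markers were present at 9941 to 11022 CPM and 5941 to 8748 CPM, with Epcam lower by a log2 fold change of −0.57 (edgeR, adjusted p = 0.0421) and 4 of 10 called lower. Of these 10, 7 lay below 0 and 3 above. Smooth muscle genes were at 265 to 1359 CPM and 1584 to 1780 CPM, 2 of 6 called higher. Leukocyte markers were at 19.5 to 25.8 CPM and 28.4 to 41.1 CPM, with 2 of the 4 tested called higher, and endothelial markers at 1.68 to 4.79 CPM and 2.53 to 4.55 CPM. The called leukocyte markers, named after their values were seen, were the myeloid genes Itgam, at 0 to 0.540 CPM in wild type and 4.98 to 8.36 CPM in the others (edgeR, adjusted p = 0.00238), and Adgre1, at 0 to 0.239 CPM and 2.22 to 3.81 CPM (edgeR, adjusted p = 0.00233). Of the 4 leukocyte markers tested, 3 lay above 0 and 1 below, with a lowest log2 fold change of −0.25. Cd3e, a T cell marker also named after its value was seen, was at 0 in all 6 libraries. The part of these cells in the organoid values of the members was not tested.

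The wider pathway was described by 60 other repair genes in 6 lists, of which 59 were in the table. In colitis 0 of 59 were called by edgeR, 1 had an unadjusted p under 0.05, and the median log2 fold change was −0.08. In CAC 3 of 59 were called, all higher, where 6.38% of all genes were called, 1.05% higher and 5.33% lower. In the same comparison 46 of 59 lay above 0 and the median was 0.34, with 24 past an unadjusted p of 0.05, all higher, against the 14.1% of all genes that were higher at that p. The called genes were Chek1, the kinase of the replication checkpoint (1.06, edgeR, adjusted p = 0.0437), Blm, a helicase of resection (0.95, edgeR, adjusted p = 0.0426), and Topbp1, an activator of checkpoint signalling (0.80, edgeR, adjusted p = 0.0440). These calls were not refitted without single libraries. Chek1 went from 4.42 ± 0.528 to 9.56 ± 1.26 CPM and Blm from 5.94 ± 0.724 to 11.9 ± 0.833 CPM (SD, n = 3). Within the homologous recombination list 17 of 18 genes lay above 0, with a median of 0.52 and 8 past an unadjusted p, and within the end joining list 7 of 12, with a median of 0.14. The 3 E2 enzyme genes, which the plot of repair lists leaves out, had a median of −0.12 in CAC, with 2 of 3 below 0. The difference between these lists was not tested.

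In the organoids 4 of the 58 repair genes tested were called higher and 5 lower, 9 in all, where 35.5% of all genes were called, a larger share. The largest change was in 1110034G24Rik, which encodes the shieldin subunit SHLD1, a brake on resection. It had 27.4 ± 11.47 CPM in wild type and 4.32 ± 0.604 CPM in the organoids labelled RNF138-/- (log2 fold change −2.71, SE 0.34, edgeR, adjusted p = 0.00198). The single-strand DNA binding subunit gene Rpa1 was lower by −0.53 (edgeR, adjusted p = 0.00633), with Sem1 (−0.52) and Rnf8 (−0.76) lower and Rnf169 (0.46) and Trp53bp1 (0.50) higher. The wild type 1110034G24Rik level in organoids was also above that of the tissue groups, whose means were between 5.71 and 10.5 CPM. With library totals alone the split became 0 higher and 13 lower, beside 4 higher and 5 lower with TMM. Between organoids and colitis the genotype effect on this gene differed by −3.07 (edgeR, adjusted p = 0.00244), and between organoids and CAC by −2.93 (edgeR, adjusted p = 0.000586).

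**Figure D5:**
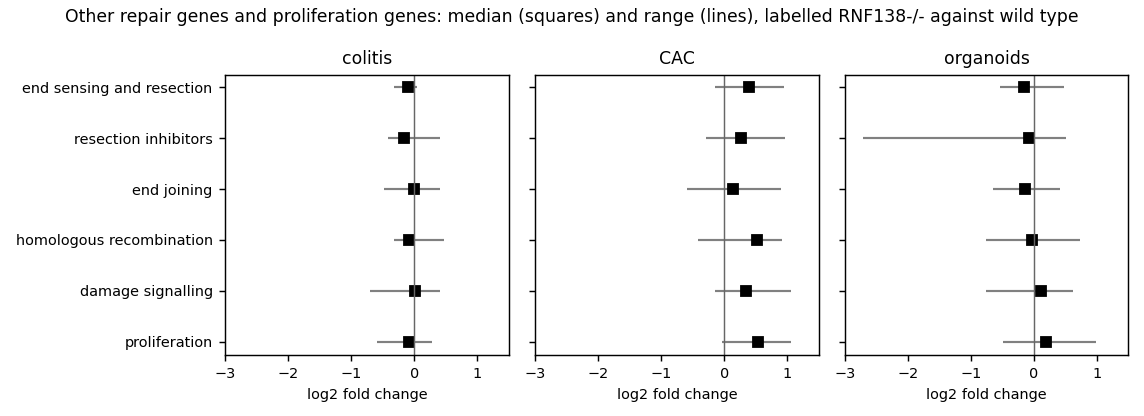
Median (squares) and lowest to highest (lines) log2 fold change of the genes in 5 repair lists and the proliferation list, libraries labelled RNF138-/- against wild type, by model. The CAC medians of the lists drawn are all above 0, highest for proliferation and homologous recombination, and the long line in the organoids ends at 1110034G24Rik.

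The other repair genes were compared between models in the same fit. From colitis to CAC, 2 of 59 were called higher and 4 lower in wild type, and 19 higher and 6 lower in the libraries labelled RNF138-/-, where the smallest p in the latter were those of Trp53bp1 (1.35, edgeR, adjusted p = 4.17e-05) and Topbp1 (1.05, edgeR, adjusted p = 9.83e-05) and the highest fold change that of Lig3 (1.58, edgeR, adjusted p = 0.000184). Over all genes 12.3% were called higher and 7.55% lower in wild type, and 27.9% and 26.7% in the others. From CAC to organoids, 30 of 59 were lower and 4 higher in wild type, and 41 lower and 2 higher in the others. Over all genes the shares called lower were 33.7% and 34.2%, and those called higher were 27% and 25.7%. In the recombination list 14 of 18 were lower in wild type organoids and 13 of 18 in those labelled RNF138-/-. All 3 genes for E2 enzymes that serve RNF138 were called higher in wild type organoids, and in those labelled RNF138-/- 2 were called higher and Ube2d1 lower. Ube2d1 was at 0.53 in wild type (edgeR, adjusted p = 0.0174) and at −0.50 in the others (edgeR, adjusted p = 0.0219). Ube2d2a was higher in organoids by 1.34 in wild type (edgeR, adjusted p = 5.87e-07) and by 1.21 in the others, and Ube2d3 by 1.06 and 1.02. The lowest fold changes in the organoids labelled RNF138-/- were those of Rad54b (−2.94, edgeR, adjusted p = 4.21e-06) and Dna2 (−2.86, edgeR, adjusted p = 2.24e-06), a recombination translocase and a resection nuclease. The genotype effect itself differed between CAC and colitis for 7 of the 59, all larger in CAC, where 4.21% of all genes were, among them Lig3 (1.43, edgeR, adjusted p = 0.0208), Trp53bp1 (1.40, edgeR, adjusted p = 0.00452) and Blm (1.30, edgeR, adjusted p = 0.0309). Between organoids and CAC it differed for 6 of 59, all smaller in organoids, where 10.2% of all genes were, with Rad51ap1 at −1.70 (edgeR, adjusted p = 0.0211) and Chek1 at −1.26 (edgeR, adjusted p = 0.0211).

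The profile of Rnf138 over the 18 libraries was compared with that of every gene. Likeness was the root mean square difference of log2 CPM after centring each gene, over 12412 genes with a mean of at least 5 CPM, and is a description only. The 5 nearest genes were Cct2, a chaperonin subunit (0.162), Ppp4r2, a phosphatase regulatory subunit (0.170), Smn1, of small ribonucleoprotein assembly (0.171), Rnmt, the mRNA cap methyltransferase (0.173), and Rrn3, a polymerase I initiation factor (0.179), against a median of 0.796. Like Rnf138, these 5 had their lowest means in colitis, between 10.9 and 159 CPM, and their highest in wild type organoids, between 33.4 and 395 CPM. Rbbp8 was the nearest member, with 6.73% of genes nearer to Rnf138 than it, followed by Xrcc5 (22.5%) and Xrcc6 (38.8%). Nbn (53.4%), Rad50 (60.1%), Brca1 (70.4%) and Rad51d (80.8%) lay in the farther part of the ranking, and Exo1 was under the level needed to be ranked.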

How the data were processed

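The authors deposited 1 table of read counts per gene for the 18 libraries. Per the labels, reads were aligned with STAR 2.6.1d to mm10 and counted with HTSeq 0.11.2. The deposited counts were not normalised, and the strand setting of the counting is not given in the sources used here. Columns were matched to samples by title. The 9 members and all gene lists were chosen with earlier results of these data known, so their pattern is no independent evidence.

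Counts were analysed in R 4.3.3 with edgeR 4.0.16 (TMM scaling, filterByExpr filter, quasi-likelihood test, Benjamini-Hochberg adjustment over all genes tested, threshold 0.05). Genotypes were compared in a fit per model, and models and differences of effects in 1 fit of 18 libraries. Alternatives were RLE scaling, library totals, no filter, DESeq2 1.42.0, 1 fit of all libraries, the replicate number as a block, Y-linked genes as a covariate, and leaving out each library. Same-numbered colitis libraries deviated together (r of 0.25, 0.11 and 0.52 over genes), and 3 of 6 correlated best with their own number. The labels name no pairing, so the paired comparison in colitis rests on these values alone. The code was tested on simulated data. Levels per kb use union exon lengths of GENCODE M21, which matched 99.84% of genes by identifier. Counts of replicate libraries differed by more than sampling noise (chi-square per degree of freedom of at least 8.05), so none was a copy. Counting error is largest for Exo1, with as few as 18 counts.

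Named genes were the members, up to 6 other repair genes per comparison with the smallest p among those called, Mre11a and Bard1, the 5 nearest profiles (pseudocount 0.5 CPM, mean of at least 5 CPM), and Mki67, Pcna, Epcam, Ptprc, Col1a1, Acta2 and Pecam1. Rrm1, Itgam, Adgre1, Ube2d1 (between organoids and CAC) and Cd3e are outside this rule and were named after their values were seen.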

Additional observations from a re-analysis of the deposited data

Results flagged for a closer look

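The effect of the RNF138-/- label on Rnf138 itself differed between models, by the test of the difference in the fit of 18 libraries. It was 0.83 larger in CAC than in colitis in log2 units, and the difference between organoids and CAC was −0.83. The effect on Rbbp8 differed as well, by −0.63 between organoids and CAC. In the CAC libraries both genes had all 3 values labelled RNF138-/- above all 3 wild type values, as did 24.5% of all genes. These calls were near the threshold: over 17 alternatives the first was lost in 14, the second in 8 and that of Rbbp8 in 12. With the replicate block the first was 0.81 (edgeR, adjusted p = 0.0578). The 3 differences share the CAC libraries, and sex cannot be told apart from genotype in the organoids.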

How the results depend on the processing

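Over the alternatives, 511 of the member fold changes kept their direction and their side of the threshold, 70 lost a call, 7 gained one and 25 changed sign. Those that changed sign were small and not called. In colitis, Xrcc6 was at −6.9974e-06 with library totals, −0.016 without the filter, −0.0092 by DESeq2 and −0.015 with the replicate block. In CAC, Nbn was at 0.20 with library totals and Rad51d at −0.0035 with the replicate block. In the organoids, Xrcc6 was at 0.013 with RLE factors, 0.010 without the filter, 0.031 by DESeq2 and 0.028 in 1 fit of all 18 libraries. With library totals, 0 members were called in CAC (Rnf138 0.98), 2 in the organoids and 5 for the difference between organoids and CAC. Over all genes 769 of 17752, 6405 of 15294 and 6122 of 19390 were called there, against 1132, 5436 and 4527 with TMM. With the same scaling the proliferation genes called were 3 higher in CAC and 3 higher and 2 lower in the organoids. In the organoids 0 other repair genes were then called higher and 13 lower. RLE factors gave 0 members for the difference between CAC and colitis, 1 for that between organoids and CAC, and 0 proliferation genes lower in the organoids. Of all genes RLE called 2673 and 4474 for these differences, against 2733 and 4527 with TMM. Without the filter, 0 members were called in the organoids, 0 for both of these differences and 1 between CAC and colitis in wild type. DESeq2 called 3 in CAC, 0 in the organoids, 2 and 4 for the same differences, and 1 between organoids and colitis. In 1 fit of 18 libraries 4 were called in CAC and 0 in the organoids. With the Y-linked genes as a covariate 0 were called in CAC (Rnf138 0.68). With the replicate block 0 were called in CAC (Rnf138 0.73), 0 in the organoids and 0 for the difference between CAC and colitis. In colitis the block called 0 members, as without it. Apart from the scalings, the shares of all genes called in these alternatives are not given here, so their counts have no background beside them. Same-numbered libraries correlated by 0.033, 0.23 and 0.077 in CAC, against −0.22, −0.093 and 0.076 for organoids. With their own number, 5 of 6 correlated best in CAC, 3 of 6 in colitis and 1 of 6 in organoids. The labels name no pairing in any of these models. Leaving out 1 library, Rnf138 ran from −0.20 to 0.16 in colitis, 0.64 to 0.78 in CAC and −0.24 to 0.0030 in the organoids, Xrcc6 from −0.145 to 0.20 in colitis and −0.076 to 0.096 in the organoids, Nbn from −0.041 to 0.45 in colitis and −0.21 to 0.050 in CAC, Rad51d from −0.052 to 0.12 in CAC, and Exo1 from −0.64 to 0.080 in the organoids. Members called then ran from 0 to 1 in CAC, 0 to 2 in the organoids, 1 to 3 and 3 to 5 between CAC and colitis in wild type and in the other group, 0 to 1 for the difference between CAC and colitis and 0 to 3 for that between organoids and CAC. The cause of these changes was not tested. Depth limits Exo1 most, with 18 to 45 counts in the organoids.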
